A study of Mus musculus with 29 samples.

Results

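Livers of calorie-restricted mice on the diet labelled soy were compared with livers of control mice. The comparison holds every liver library with the diet label control (3 mice: 1095, 1120 and 1121) or soy (4 mice: 1065, 1073, 1141 and 1159), which is 7 of the 29 libraries of the series. All animals were male C57BL/6, an inbred laboratory strain, bought at 14 weeks of age, kept on chow and assigned to their diets at random when 4 months old. The control group was fed 13.6 kcal daily, 95% of free intake, and the soy group 8.6 kcal daily, 60% of free intake. The sources used here do not describe what the control diet contained, so intake and diet composition cannot be told apart in this comparison. The authors had dropped a further control liver that clustered elsewhere and had poorer RNA. The 8 livers of mice also restricted to 60% on the diets labelled fish (4) and lard (4) entered the model as well, and their levels are given beside those of the soy livers. Each library is the whole liver RNA of 1 mouse, so its transcripts come from a mixture of cell types.

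In male mice growth hormone is released in pulses with long gaps, and the pulses switch the transcription factor STAT5B on and off in hepatocytes. This rhythm keeps male-biased genes such as the major urinary proteins high and female-biased genes such as Cyp2b13 and Cux2 low. Calorie restriction is also known for shifts in hepatic fuel use, from storing fat and sugar toward releasing glucose and burning fat.

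The tested quantity was the count of reads on the exons of each gene, 13395489 to 20956142 per library in the 7 livers. Of 38124 genes 12788 passed the filter on low counts. Levels are given as CPM, counts per 1e6 reads after normalization of the library sizes, in the mouse order 1095, 1120 and 1121 for control and 1065, 1073, 1141 and 1159 for soy. Fold changes are soy minus control on the log2 scale with their SE, and a gene passed at an edgeR adjusted p under 0.05. The levels of 9 hepatocyte markers, albumin among them, summed to 96100 to 126000 CPM in control and 146000 to 184000 CPM in soy livers. Most of that difference was albumin, as Alb was at 60600 to 85100 CPM in control and 107000 to 137000 CPM in soy livers. Of the 9 markers 7 had positive and 2 negative changes, at a median of 0.16, and 0 passed. Apob was at 5750, 8010 and 6650 CPM in control and 6330, 2150, 5570 and 2860 CPM in soy livers, lowest in mice 1073 and 1159. In whole liver, fewer cells of a type and less RNA per cell cannot be told apart.

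The soy livers of mice 1073 and 1159 stood apart from all others. In the 10 groups of genes formed by exon length, the median fold change fell step by step from 0.46 in the shortest (median 973 bases) to -0.28 in the longest (8275 bases) when all 4 soy livers were used. Without these 2 livers the same medians ran from -0.04 to 0.06. Within the 2 libraries, the deviation of a gene from the mean of the livers had a Spearman correlation across genes of -0.646 and -0.627 with exon length, against 0.06 to 0.317 in the other 5 libraries. The main results below are given with and without them, and the values without them compare 3 control with 2 soy livers. What set these libraries apart was not tested.

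**Figure D1:**
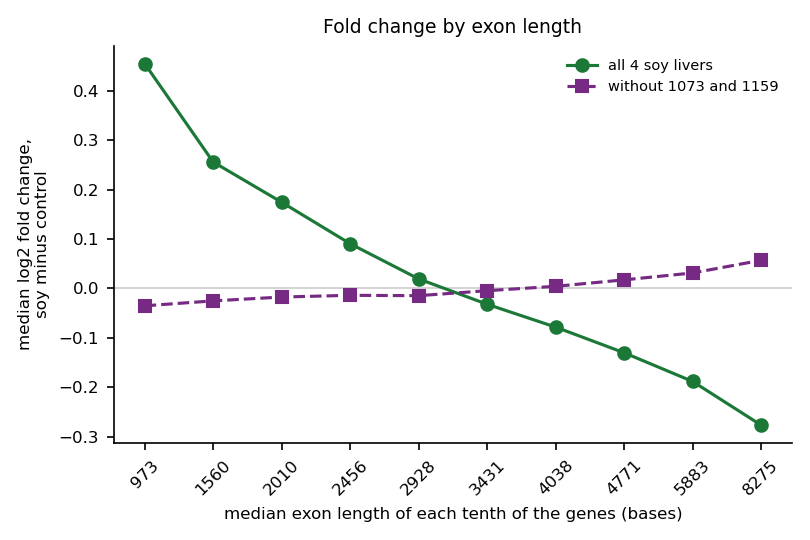
The x axis gives the median exon length in bases of 10 groups of the 12788 tested genes, the y axis the median log2 fold change of soy minus control. With all 4 soy livers (circles) the medians fall from 0.46 to -0.28, and without mice 1073 and 1159 (squares) they lie between -0.04 and 0.06.

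With all livers 149 genes passed (1.17% of those tested), of which 51 were higher (0.399%) and 98 lower (0.766%) in soy. Without mice 1073 and 1159 the test on 12900 genes called 26 (0.202%), 9 higher and 17 lower. Both tests called 23 genes, 9 higher and 14 lower, and most of these are described below. The other 3 called only without the 2 livers were Tcta, Hps4 and Cox19, named here after their values were seen. All 149 genes kept the sign of their change without the 2 livers. The median change of the 51 higher genes was 1.18 with and 0.883 without them, and that of the 98 lower genes -1.30 and -1.15. Of the higher genes 6 shrank to less than 0.5 of their log2 fold change, and of the lower genes 0. The median exon length was 1965 bases in the higher and 3463 bases in the lower genes. At an unadjusted edgeR p under 0.05 there were 2848 of 12788 genes with all livers and 1753 of 12900 without the 2 livers. DESeq2, a further test of counts, called 865 and 280 genes. The unadjusted and DESeq2 counts of single lists below are to be read against these.

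**Figure D2:**
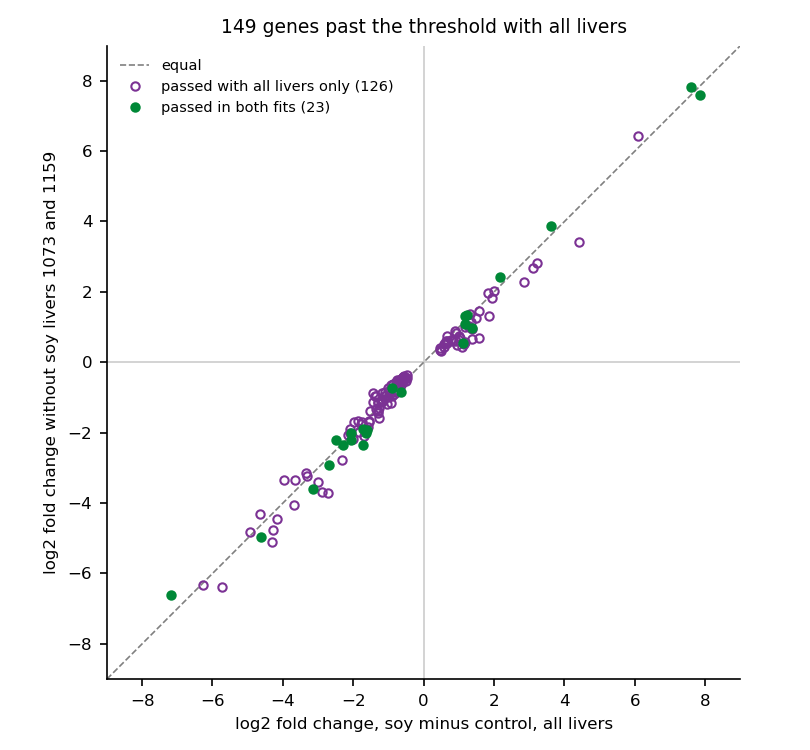
Each point is 1 of the 149 genes that passed with all livers, with its log2 fold change in that fit on the x axis and without soy livers 1073 and 1159 on the y axis. Filled points are the 23 genes that passed in both fits and open points the other 126, and no gene lies in a quadrant of opposite sign.

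The largest rise was that of Cyp2b13, a female-biased P450 gene (ENSMUSG00000040583, chromosome 7, 26061495 to 26096196). It was at 1.54, 0.209 and 1.0 CPM in control and 329, 120, 34.5 and 377 CPM in soy livers. The lowest soy liver was thus far above the highest control liver, while the soy livers differed several-fold among themselves. The rise was 7.84 ± 1.18 (edgeR adjusted p = 0.00562), and 7.60 ± 1.26 without mice 1073 and 1159 (adjusted p = 0.0353). Sult2a7, a sulfotransferase, was at 1.67, 2.43 and 1.57 CPM in control and 44.6, 29.8, 10.5 and 6.42 CPM in soy livers, and rose by 3.61 ± 0.64. Its call was lost when control liver 1095, 1120 or 1121 was left out (adjusted p = 0.0561, 0.0644 and 0.0869), while that of Cyp2b13 held in all 15 removals of a single liver. Cyp2c68, another P450, rose less but more evenly, from 180, 221 and 204 CPM to 395, 409, 456 and 572 CPM, by 1.18 ± 0.15 (adjusted p = 0.00219), and by 1.08 ± 0.14 without the 2 livers. Of its reads 75.1% were unique, as it has close paralogs.

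**Figure D3:**
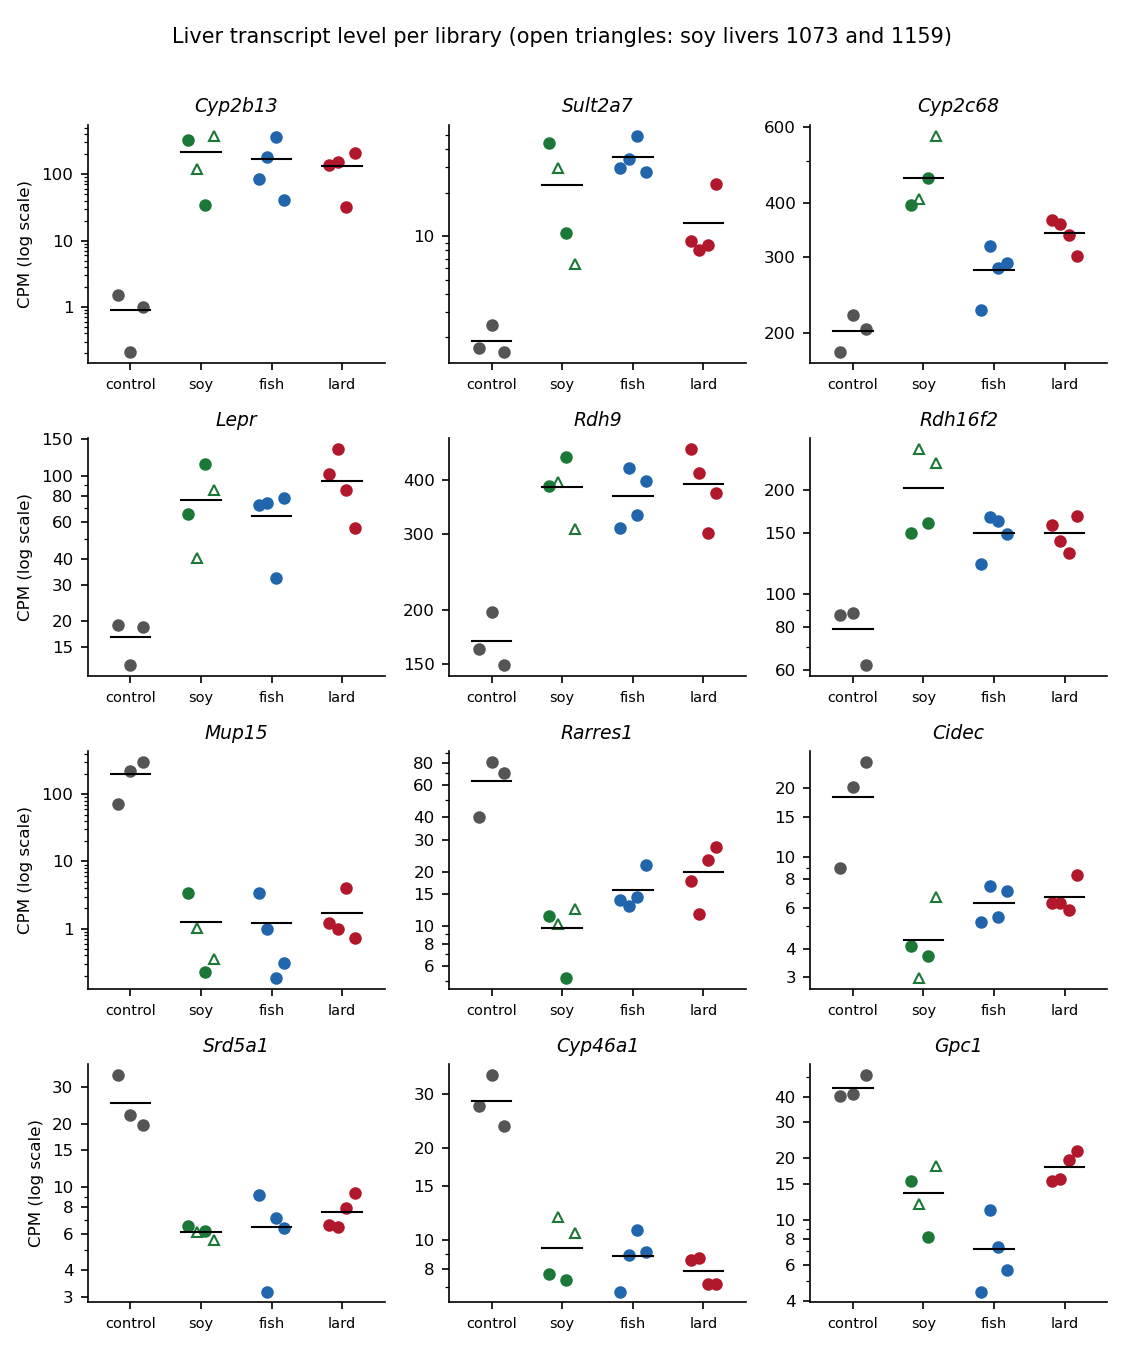
Each panel shows 1 gene that passed both with and without soy livers 1073 and 1159, with CPM on a logarithmic y axis and 1 point per liver for the control, soy, fish and lard diets. Bars are group means and open triangles mark soy livers 1073 and 1159. In the upper 2 rows all soy livers lie above all control livers, as for Lepr at 40.5 to 114 against 12.3 to 19.3 CPM, and in the lower 2 rows below them.

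Of 44 listed female-biased liver genes 38 were tested, and 6 rose and 0 fell, of which 3 passed without mice 1073 and 1159. Among them, beside Cyp2b13 and Sult2a7, were Cux2, a transcription factor of female liver, the organic anion transporter gene Slc22a27 and the steroid hydroxylase gene Cyp2a4. Cux2 was at 0.512, 0.556 and 0.502 CPM in control and 38.2, 33.5, 54.3 and 18.7 CPM in soy livers. Its change was 6.09 ± 1.13 with all livers and 6.44 ± 1.27 without the 2, where it did not pass (adjusted p = 0.0533). The call was also lost without control liver 1095 (adjusted p = 0.0645), 1120 (0.0939) or 1121 (0.0948). Slc22a27 was evenly high in soy, between 36.8 and 42.7 CPM, against 5.12, 9.39 and 15.6 CPM in control livers, and rose by 2.00 ± 0.39. Its call was lost without control liver 1095 (adjusted p = 0.0732) or 1120 (0.111) or soy liver 1159 (0.0520). That of Cyp2a4, at 4.40 ± 0.88, was lost without control liver 1095 (0.0911), 1120 (0.111) or 1121 (0.116) or soy liver 1159 (0.0616), and neither gene passed without both livers (0.0764 and 0.115). The median of the list was 0.84, and 0.87 without the 2 livers, against 0.0035 and 0.0017 over all genes tested. In 15 of its genes every soy liver was above every control liver, against 5.97% of all genes tested. The remaining members did not pass, among them Hamp2 at 1.85 ± 0.46 (adjusted p = 0.0573), or 1.12 without the 2 livers.

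Male-biased genes showed the opposite direction. Of 38 listed genes 35 were tested, 12 fell and 0 rose, and in 28 every soy liver was below every control liver, against 6.45% of all genes tested. Without mice 1073 and 1159 only Mup15 of the 12 passed, and 11 calls were lost. The list median was -1.76, and -1.95 without mice 1073 and 1159. Major urinary proteins, which carry pheromones in male urine, gave 5 of the 12. All 20 tested members of that family had lower fitted levels in soy, at a median of -2.24, or -3.12 without the 2 livers, and only Mup15 passed in both fits. These are not 20 separate measurements, since under 50% of the reads of 15 members were unique. The 5 members with 95% or more unique reads had changes of -2.39 to -0.39, and none of these 5 is among those that passed. The other 4 that passed were Mup14, Mup17, Mup1 and Mup7. Those of Mup1 and Mup7 were lost in 7 and 8 of 15 removals, with the highest adjusted p without soy liver 1159 (0.118 and 0.130). Mup15 was at 72.4, 226 and 301 CPM in control and 3.44, 1.03, 0.224 and 0.357 CPM in soy livers, but only 5.78% of its reads were unique, so that reads of its paralogs cannot be told from its own. Its change was -7.17 ± 0.86, and -6.62 ± 1.02 without the 2 livers. The other 7 male-biased genes were Ugt2b38, Cyp4a12a, Cyp4a12b, Elovl3 and the complement genes C6, C8a and C9. The fatty acid hydroxylase gene Cyp4a12a fell from 55.8, 175 and 84.5 CPM to 6.29, 7.56, 2.98 and 6.28 CPM. Its call and that of Cyp4a12b were lost without control liver 1120 (adjusted p = 0.0650 and 0.0794), and without mice 1073 and 1159 (0.0939 and 0.0885). Of the reads of Cyp4a12a 66.05% and of those of its paralog Cyp4a12b 63.99% were unique, so their falls are not fully separate measurements. Elovl3, an elongase of long saturated fatty acids, was at 84.7, 46.0 and 40.8 CPM in control and 8.23, 6.35, 2.24 and 11.5 CPM in soy livers, a change of -3.01 ± 0.56 (adjusted p = 0.0181). Its change without the 2 livers was -3.39 ± 0.75 (adjusted p = 0.0738), and its call was lost without control liver 1095 (adjusted p = 0.0596) or 1120 (0.0557). Its exons overlap those of Pitx3 on the opposite strand, and whether the authors counted by strand is not known here.

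Srd5a1, the type 1 steroid 5-alpha reductase that reduces testosterone to dihydrotestosterone and inactivates glucocorticoids in liver, fell in both fits. Its level was 34.3, 22.1 and 19.8 CPM in control and 6.53, 6.11, 6.19 and 5.56 CPM in soy livers, with little spread among the soy mice. The change was -2.05 ± 0.27 (adjusted p = 0.00219), and -2.0 ± 0.35 without the 2 livers (adjusted p = 0.0417). Of its reads 54.5% were unique, and part of its exons is shared with the gene model Gm17108.

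Of 23 tested genes of the growth hormone and IGF axis, Cux2 alone passed, 5 were higher and 4 lower at an unadjusted p under 0.05, and the list median was 0.01 (0.12 without the 2 livers). Igf1, the hormone that growth hormone induces in liver, was at 525, 582 and 600 CPM in control and 728, 459, 510 and 642 CPM in soy livers. These ranges overlapped, and the difference was 0.04 ± 0.15 (adjusted p = 0.897). The growth hormone receptor gene Ghr was at -0.53 ± 0.16 (adjusted p = 0.0981), the feedback inhibitor gene Socs2 at 0.70 ± 0.43 and the female-gene repressor Bcl6 at -1.01 ± 0.50. Bcl6 was at 10.1, 48.9 and 11.2 CPM in control and 7.84, 13.9, 20.5 and 4.42 CPM in soy livers, and its difference turned to 0.12 without control liver 1120. Igfbp1 and Igfbp2, binding proteins of IGF1, were at 1.55 ± 0.45 and 1.39 ± 0.34, and did not pass (adjusted p = 0.0900 and 0.0573). For Igfbp2 the value was 0.53 without mice 1073 and 1159, whose levels of 942 and 1380 CPM were its highest.

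The promoters of the genes that passed were searched because STAT5, CUX2 and the related factor HNF6, and the sterol-sensing SREBPs bind short known motifs. RefSeq promoter windows (GRCm38.p6, the 250 bases before the start site) were found for 38 of the 54 named genes that passed with all livers. The STAT5 motif TTCNNNGAA, which reads the same on both strands, occurred for 1 of them, C8a, and in 7.02% of all 32851 promoter windows. ATCGAT, the CUX2 and HNF6 motif, also its own reverse complement, occurred for 1 gene, Cux2 itself, and in 0.728% of all windows. The sterol motif TCACNCCAC occurred on either strand for 1 gene, Atp9a, and in 1.05% of all windows. The windows of Cyp2b13, whose rise was the largest among those with an entry, and of C8a are shown 5′ to 3′, with the STAT5 match of C8a, which starts 228 bases before the start site, in capitals.
Cyp2b13, chr7:26061245-26061494, plus strand: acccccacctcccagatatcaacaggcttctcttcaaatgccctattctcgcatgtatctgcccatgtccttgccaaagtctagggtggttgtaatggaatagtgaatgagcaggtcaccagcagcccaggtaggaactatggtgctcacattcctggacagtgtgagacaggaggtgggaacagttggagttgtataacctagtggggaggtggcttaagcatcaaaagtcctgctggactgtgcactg
C8a, chr4:104876399-104876648, minus strand: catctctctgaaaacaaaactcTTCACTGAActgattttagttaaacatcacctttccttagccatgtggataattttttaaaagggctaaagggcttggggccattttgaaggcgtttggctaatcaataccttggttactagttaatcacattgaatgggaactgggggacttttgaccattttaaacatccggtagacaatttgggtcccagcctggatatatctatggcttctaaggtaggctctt

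Among receptors, the leptin receptor gene Lepr rose and the ephrin receptor gene Ephb2 fell. Lepr (ENSMUSG00000057722, chromosome 4, 101717404 to 101815352) was at 19.3, 12.3 and 18.9 CPM in control and 65.5, 40.5, 114 and 85.5 CPM in soy livers. All soy livers were above all control livers, and the rise was 2.18 ± 0.39 (adjusted p = 0.0141), or 2.41 ± 0.40 without the 2 livers. The counts are per gene and do not separate its signalling and soluble forms. The call was lost without control liver 1120 (adjusted p = 0.0906) or 1121 (0.0612). Ephb2, a receptor tyrosine kinase for ephrin-B ligands, had the smallest adjusted p of the comparison with all livers, 0.000534. It was at 1.22, 1.95 and 3.07 CPM in control livers and at 0.0484, 0.0605, 0.0746 and 0.143 CPM in soy livers, levels of very few reads. Gpc1, a heparan sulfate proteoglycan that binds growth factors at the cell surface, was at 40.3, 41.2 and 51.2 CPM in control and 15.5, 11.9, 8.20 and 18.3 CPM in soy livers. It fell by 1.71 ± 0.28, and by 1.88 ± 0.33 without the 2 livers (adjusted p = 0.0417 there), but its exons overlap those of Ankmy1 on the opposite strand. The membrane protein genes Clstn3, Cntnap1 and Slc35f2 also fell in both fits, with changes of -1.64 ± 0.28, -2.49 ± 0.31 and -3.16 ± 0.41 with all livers. Of these Clstn3, a calsyntenin, did not pass without control liver 1120 or 1121 (adjusted p = 0.0569 and 0.0583). The exons of Cntnap1 overlap those of Plekhh3 on the opposite strand, which was itself at -0.02 ± 0.19. Tmem28, a membrane protein gene, changed by -2.30 ± 0.36 and -2.36 ± 0.41 without the 2 livers.

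Rdh9 and Rdh16f2, short-chain dehydrogenases related to retinol dehydrogenase, rose in both fits. Rdh9 went from 163, 198 and 149 CPM to 386, 395, 451 and 308 CPM, by 1.18 ± 0.18, and by 1.30 ± 0.19 without mice 1073 and 1159. Rdh16f2 was at 86.7, 88.2 and 62.0 CPM in control and 150, 264, 160 and 241 CPM in soy livers, with the highest values in mice 1073 and 1159, and its change shrank from 1.37 ± 0.21 to 0.97 ± 0.16 without them. Part of the Rdh9 exons is shared with Rdh16f1 on the same strand. Rarres1, named for its response to retinoic acid, was at 40.3, 80.5 and 70.1 CPM in control and 11.3, 10.3, 5.15 and 12.5 CPM in soy livers, and fell by 2.69 ± 0.33 (adjusted p = 0.00172). All 3 calls held in each of the 15 removals of a single liver, 8 of which took out a fish or lard liver. With only control and soy livers in the fit, the call of Rarres1 held and those of Rdh9 and Rdh16f2 were lost. Other genes that passed with and without mice 1073 and 1159 also lost their call there. Among them were Cyp2c68, Sult2a7, Lepr, Cidec, Clstn3, Apom, Wfdc2, Ermp1 and Atp9a. The calls of Cyp2b13, Mup15, Srd5a1, Ephb2, Gpc1, Cntnap1, Slc35f2, Tmem28 and Cyp46a1 held.

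Of 26 tested lipid droplet genes 3 fell and 0 rose. Cidec, which coats lipid droplets and drives their fusion, was at 8.97, 20.2 and 26.0 CPM in control and 4.11, 2.96, 3.73 and 6.70 CPM in soy livers. The groups did not overlap, and the fall was 2.07 ± 0.31 (adjusted p = 0.00562), or 2.22 ± 0.36 without the 2 livers (adjusted p = 0.0353). Its relative Cidea was at 0.640, 3.48 and 4.77 CPM in control livers and at 0.0484, 0, 0 and 0.0713 CPM in soy livers, where no library held more than 1 read. It did not pass without mice 1073 and 1159 (adjusted p = 0.0521). Mogat1, a monoacylglycerol acyltransferase that makes diacylglycerol for fat storage, was the third, falling by 1.69 ± 0.32. It did not pass without the 2 livers (adjusted p = 0.0510) or without control liver 1120 (0.105) or 1121 (0.106). The list median was -0.27, and -0.42 without the 2 livers. Plin2, the common droplet coat protein of hepatocytes, lay lower in all soy livers (299 to 447 CPM) than in all control livers (484 to 633 CPM) but did not pass, at -0.57 ± 0.20 (adjusted p = 0.129). The nuclear receptor gene Pparg was at -0.45 ± 0.22.

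Of 28 tested sterol genes 2 rose and 0 fell. Among them was Soat2, which esterifies cholesterol, at 0.63 ± 0.14, and its call was lost in 9 of 15 removals (adjusted p up to 0.165, without control liver 1121). The sterol-sensing transcription factor gene Srebf2 was at 0.06 ± 0.18, or 0.32 without the 2 livers. The sterol list had a median of 0.46, which was 0.23 without the 2 livers, 0.20 without control liver 1095 or soy liver 1073, and 0.69 without control liver 1120. Cyp46a1, cholesterol 24-hydroxylase, best known from neurons, fell from 27.5, 34.6 and 23.6 CPM to 7.74, 11.9, 7.38 and 10.5 CPM. Its change was -1.61 ± 0.19, and -1.92 ± 0.20 without the 2 livers, where its adjusted p of 0.00288 was the smallest of all genes. Osbpl3, an oxysterol-binding protein family member, was at 9.41, 35.5 and 43.6 CPM in control and 2.47, 3.08, 3.95 and 2.28 CPM in soy livers. Its change of -3.33 ± 0.44 held in all 15 removals, and was -3.23 ± 0.61 without the 2 livers (adjusted p = 0.0521).

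Of 31 lipoprotein genes 2 rose, Apom among them, and 0 fell. Apom, which carries sphingosine 1-phosphate on high-density lipoprotein, was at 133, 123 and 131 CPM in control livers. Soy livers 1065 and 1141 held 183 and 191 CPM, and soy livers 1073 and 1159, which had the skew toward short exons, 392 and 358 CPM. Its change was therefore 1.12 ± 0.22 with and 0.53 ± 0.08 without the last 2 (adjusted p = 0.0223 and 0.0163), and its exon length is 1013 bases. The call was lost without control liver 1095 (adjusted p = 0.0632), 1120 (0.112) or 1121 (0.0974) or without soy liver 1159 (0.0626). The list median fell from 0.26 to 0.08 without the 2 livers. Among 28 bile acid genes only the conjugate exporter gene Abcc3 passed, from 301, 276 and 280 CPM to 188, 113, 116 and 166 CPM. Its change was -0.97 ± 0.17, and -0.91 ± 0.19 without the 2 livers (adjusted p = 0.0593), and the call ended without control liver 1120 (0.0569) or 1121 (0.0564). Cyp7a1, the rate-limiting enzyme of bile acid synthesis, was at 0.40 ± 0.46 (-0.06 without control liver 1095), and Cyp8b1, which sets the share of cholic acid, at -1.64 ± 0.61 (adjusted p = 0.145). Control liver 1095 held the lowest control level of both, 44.4 and 83.8 CPM.

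The fuel pathways gave few calls. Of 26 gluconeogenesis genes Got1, cytosolic aspartate aminotransferase, rose, from 221, 104 and 294 CPM to 386, 656, 521 and 530 CPM, by 1.34 ± 0.28 (adjusted p = 0.0289). Without the 2 livers it was at 1.14 ± 0.31 (adjusted p = 0.139). The call was also lost without control liver 1095 (0.0766), control liver 1120 (0.0794), soy liver 1073 (0.0615) or soy liver 1159 (0.0691). Pck1 and G6pc, the enzymes that commit carbon to glucose release, had overlapping groups, at 0.33 ± 0.29 (0.12 without the 2 livers) and 0.40 ± 0.44. Tat, which begins tyrosine breakdown and responds to glucocorticoids, was at 974, 600 and 793 CPM in control and 1701, 2109, 1080 and 1667 CPM in soy livers, and did not pass (1.06 ± 0.29, adjusted p = 0.0731). Of 36 genes of amino acid breakdown and the urea cycle only Cth, the cystathionine lyase that makes cysteine, rose, by 0.45 ± 0.10. That call was lost in 12 of 15 removals (adjusted p up to 0.151, without control liver 1121). The urea cycle enzyme genes Asl and Cps1 were at 1.05 ± 0.25 and 0.42 ± 0.24, and Cps1 was highest, at 5964 CPM, in soy liver 1141. Without mice 1073 and 1159, Asl was at 0.53 and Cps1 at 0.78. The medians of these 2 lists were 0.30 and 0.32 with all livers and 0.11 and 0.14 without mice 1073 and 1159.

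Of 49 tested targets of the fatty acid receptor PPARα and fat oxidation genes 0 passed the edgeR test in either fit, at a median of -0.13, or -0.29 without the 2 livers, which turned to 0.03 without control liver 1121. At an unadjusted p under 0.05, 4 were higher and 9 lower, and DESeq2 called 1 higher and 4 lower. Over all 12788 genes tested, 2848 had an unadjusted p under 0.05 and DESeq2 called 865. Cpt1a, the entry enzyme for fatty acids into mitochondria, was at 717, 874 and 990 CPM in control and 701, 424, 601 and 496 CPM in soy livers, at -0.63 ± 0.16 (adjusted p = 0.0605), or -0.40 without the 2 livers. Fgf21, a fasting hormone of liver, was at 6.08, 4.45 and 4.33 CPM in control and 1.31, 2.06, 5.44 and 3.21 CPM in soy livers (-0.75 ± 0.45). The gene of the receptor itself, Ppara, was at 36.8 and 53.3 CPM in soy livers 1073 and 1159 and at 196 and 218 CPM in the other 2, against 172 to 270 CPM in control livers.

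Of 31 fatty acid synthesis genes Elovl3 alone passed. Fasn, fatty acid synthase, was at 352, 418 and 253 CPM in control and 339, 882, 994 and 317 CPM in soy livers, and the soy livers formed no common level. Its change was 0.89 ± 0.45, with Acly at 0.52 ± 0.32, the desaturase gene Scd1 at -0.55 ± 0.41 and the transcription factor gene Srebf1 at 0.31 ± 0.42. Without the 2 livers Acly, Scd1 and Srebf1 were at 0.30, -0.20 and 0.20, and Srebf1 was at -0.02 without soy liver 1073. Lpin1, a phosphatidate phosphatase that is also a coactivator of fat oxidation genes, was at 1.15 ± 0.38 (adjusted p = 0.113). Of 36 insulin and nutrient sensing genes Sesn3, a sestrin that restrains mTORC1, fell by 1.44 ± 0.31. Without mice 1073 and 1159, which held its lowest levels of 1.27 and 1.43 CPM, it was at -0.86 (adjusted p = 0.0510), and its call was lost in 12 of 15 removals (up to 0.122, without control liver 1121).

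**Figure D4:**
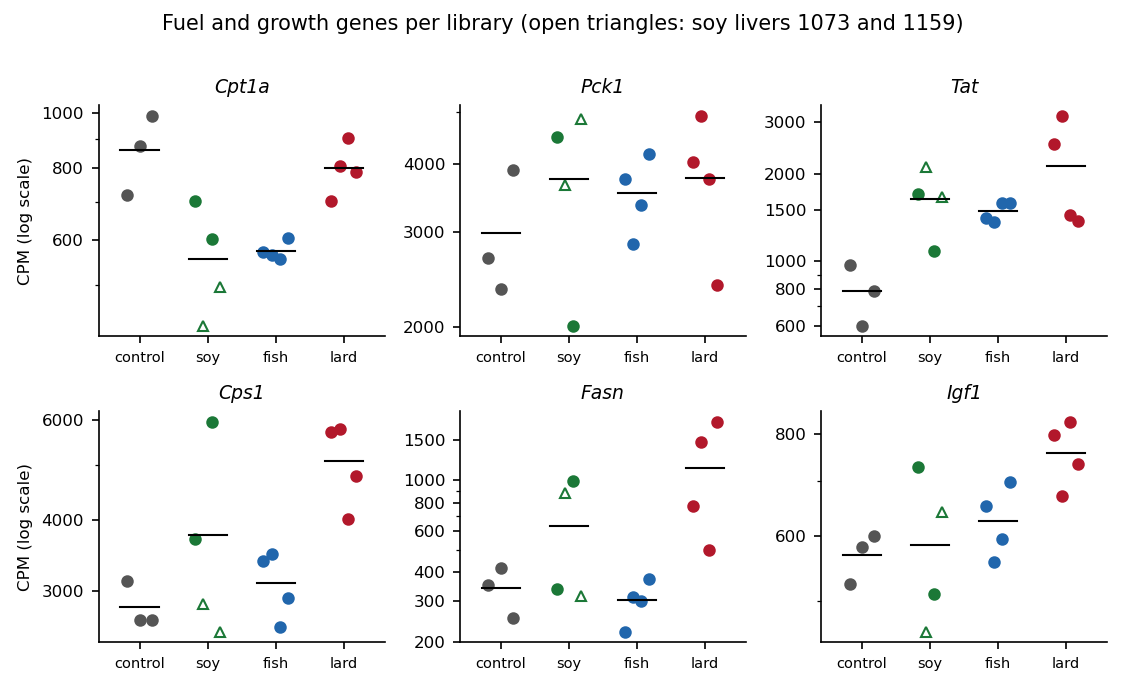
Each panel shows 1 gene of fuel metabolism or growth control, none past the threshold between soy and control, with CPM on a logarithmic y axis and 1 point per liver for each diet. Bars are group means and open triangles mark soy livers 1073 and 1159. Control and soy livers overlap for Pck1, Cps1, Fasn and Igf1, while for Cpt1a (424 to 701 against 717 to 990 CPM) and Tat (1080 to 2109 against 600 to 974 CPM) they do not.

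Xenobiotic metabolism modifies foreign compounds in a first phase and conjugates them in a later one. Of 33 phase 1 genes 2 rose, Cyp2b13 among them, and 0 fell. Of 41 phase 2 genes Sult2a7 and the glutathione transferase gene Gsta4 rose and Ugt2b38 fell, the last from 7.11, 2.02 and 3.20 CPM to 0.581, 0.121, 0.149 and 0.0713 CPM. Ugt2b38 did not pass without mice 1073 and 1159 (adjusted p = 0.103). Gsta4 was at 154 and 147 CPM in soy livers 1073 and 1159 but at 55.2 and 57.3 CPM in the other 2, against 30.8 to 39.8 CPM in control livers. Its change was 1.57 ± 0.34 with and 0.69 without the first 2 (adjusted p = 0.184), and the call was lost in 12 of 15 removals (up to 0.150, without control liver 1121). The phase 2 median went from 0.29 to -0.06 without them. Of 25 antioxidant genes regulated by NRF2 0 passed by edgeR (3 higher and 2 lower at an unadjusted p under 0.05, and 0 and 2 by DESeq2), and their median went from 0.17 to -0.13. Gclc, the rate-limiting enzyme of glutathione synthesis, was at -0.83 ± 0.21 (adjusted p = 0.0626), or -0.49 without the 2 livers (0.233), which held its lowest levels of 106 and 123 CPM.

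Of 37 tested complement and coagulation genes 3 fell and 0 rose, at a median of -0.02. C8a was at 451, 547 and 367 CPM in control and 196, 166, 86.3 and 89.2 CPM in soy livers, a change of -1.76 ± 0.35 (adjusted p = 0.0244). C9 went from 215, 154 and 181 CPM to 96.5, 88.6, 64.1 and 107 CPM, and C6 from 96.2, 92.6 and 84.8 CPM to 40.8, 44.3, 28.3 and 34.5 CPM. The 3 encode parts of the membrane attack complex, and all are also on the male-biased list. Without the 2 livers C8a was at -1.69 (adjusted p = 0.124), C9 at -1.19 (0.0642) and C6 at -1.40 (0.111), so the calls were lost at similar sizes. Calls of all 3 were lost as well without control liver 1095 (adjusted p = 0.0571, 0.0818 and 0.0775), 1120 (0.115, 0.0561 and 0.111) or 1121 (0.0612, 0.0906 and 0.0933), and those of C8a and C6 without soy liver 1159 (0.0840 and 0.0935). The acute phase gene Saa1 was at 24.6, 25.0 and 84.8 CPM in control and 11.4, 24.9, 2.61 and 18.4 CPM in soy livers, and did not pass (-1.64 ± 0.62, or -2.62 without the 2 livers).

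Of 40 interferon-stimulated genes Rsad2, an antiviral enzyme, fell by 1.20 ± 0.23, from 9.93, 7.72 and 6.14 CPM to 4.65, 3.75, 2.68 and 2.57 CPM. That call was lost without mice 1073 and 1159 (adjusted p = 0.102), control liver 1095 (0.0707), control liver 1120 (0.0722) or soy liver 1159 (0.0520). The list had a median of -0.14 with 25 genes below 0, and of -0.50 with 38 below 0 without the 2 livers, where 0 passed by edgeR (15 lower at an unadjusted p under 0.05, and 6 by DESeq2). Over single removals that median ranged from -0.53 without soy liver 1073 to -0.08 without soy liver 1159. Of 11 class II antigen presentation genes 0 passed by edgeR (2 lower at an unadjusted p under 0.05, and 1 by DESeq2), and the median went from 0.06 to -0.74, with -0.37 under an offset for exon length and -0.05, -0.29 and -0.08 without control liver 1095, soy liver 1073 or soy liver 1159. Their transactivator gene Ciita was at -1.46 ± 0.35 (adjusted p = 0.0521). Markers of B and plasma cells, 7 genes, summed to 27.0 to 68.4 CPM in control and 11.9 to 24.5 CPM in soy livers. Most of that sum was Ighm, at 20.4 to 56.4 CPM in control and 6.93 to 16.7 CPM in soy livers. Of the 6 tested markers 5 had negative changes and 0 passed, and Jchain, Mzb1 and Cd79b had overlapping groups. The part of these cells in the interferon and class II values was not tested.

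Of 78 ribosomal protein genes all had positive changes with all livers, at a median of 0.84, and 2 passed, Rpl10 and Rpl26, with calls lost in 13 of 15 removals (adjusted p up to 0.144 for both, without control liver 1121). Only 2.57% of the reads of Rpl10 and 51.8% of those of Rpl26 were unique. Without the 2 livers 0 passed and the median was 0.17. The 75 nuclear genes of the respiratory chain went from 0.66 to 0.01 and the 38 proteasome genes from 0.43 to -0.01, with 0 passing by edgeR in either fit. With all livers 65 and 21 of them were higher at an unadjusted p under 0.05, and DESeq2 called 25 and 5 higher. The 13 genes of the mitochondrial genome were at 0.08 with and 0.19 without them, but at -0.29 with an offset for exon length and -0.05 without control liver 1095. Mean ribosomal protein levels on the log2 CPM scale were 8.41 and 8.35 in soy livers 1073 and 1159 and 6.89 to 7.25 in the other 5 livers of the comparison. The same 2 livers had the highest sum over the erythroid marker list (1070 CPM in each, against 382 to 717 CPM in the other 5). Most of that sum was globin RNA, as Hbb-bs was at 449 and 466 CPM and Hba-a1 at 287 and 261 CPM in them. Alas2, on the same list, was lower in soy, at 52.5 to 89.7 CPM in control and 12.2 to 39.4 CPM in soy livers. Mouse 1073 had the highest sum over the mesothelial marker list (588 CPM against 157 to 276 CPM). Nearly all of that sum was the keratin genes Krt8 (297 CPM) and Krt18 (283 CPM), with Msln at 4.23 CPM and Upk3b at 2.96 CPM. The sum is thus keratin RNA rather than a measure of mesothelial cells. Msln itself was at 0.064, 0.417 and 0.564 CPM in control and 2.71, 4.23, 1.12 and 1.14 CPM in soy livers, levels of few reads. Its change was 2.72 ± 0.77 (edgeR adjusted p = 0.0832). Of the 6 markers on that list 5 had positive and 1 negative changes, and 0 passed. The part of these values in the list medians was not tested. Collagen and matrix genes had a median of -0.37 with and -0.08 without the 2 livers. Of these 30 genes Postn, periostin, passed, rising by 0.67 ± 0.15, and its call was lost in 11 of 15 removals (up to 0.131, without control liver 1095).

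**Figure D5:**
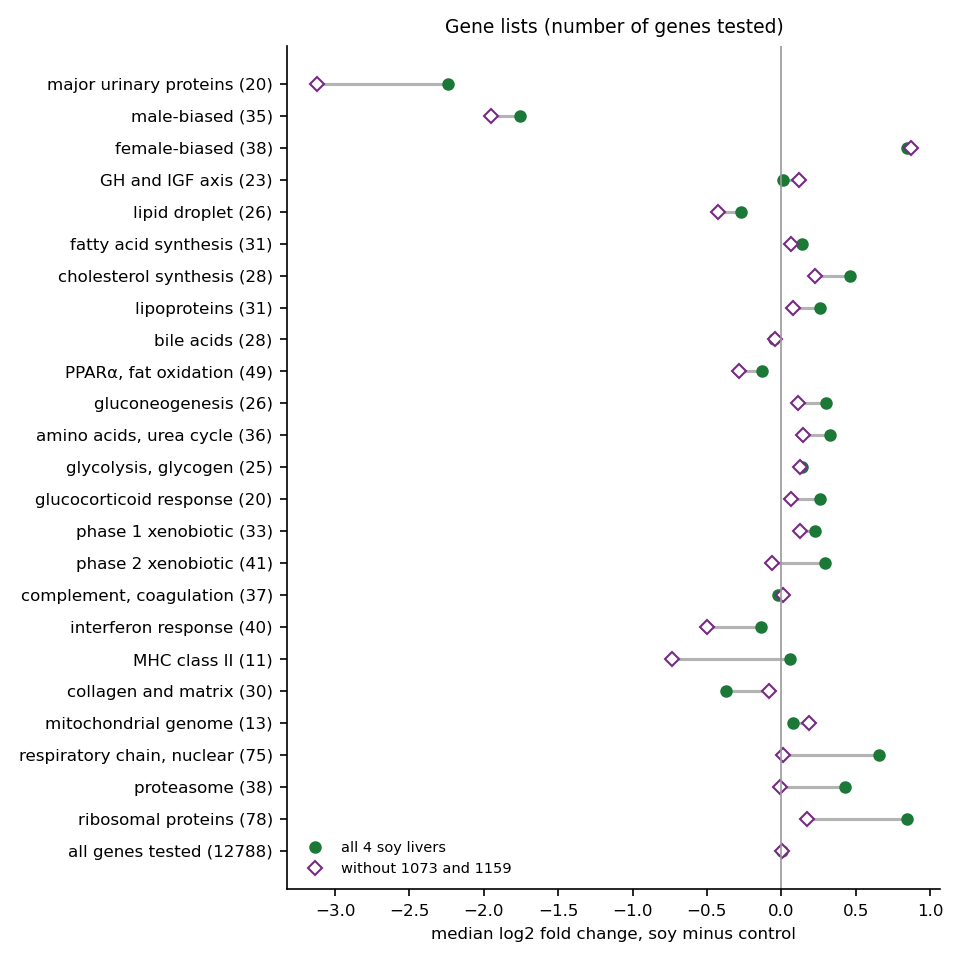
Each row is a list of genes with the number tested, and the x axis gives the median log2 fold change of soy minus control with all 4 soy livers (circles) and without mice 1073 and 1159 (diamonds). The major urinary protein and male-biased medians lie at -1.76 or below in both, the female-biased median at 0.84 and 0.87, and the ribosomal, respiratory chain and proteasome medians move from 0.84, 0.66 and 0.43 to 0.17, 0.01 and -0.01.

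Of the 21 clock genes 0 passed by edgeR (3 higher and 2 lower at an unadjusted p under 0.05, and 1 and 2 by DESeq2). Arntl, the core activator of the circadian clock, was at 1.92, 1.60 and 2.01 CPM in control and 0.871, 0.242, 0.522 and 0.999 CPM in soy livers (-1.47 ± 0.36, adjusted p = 0.0569). Per1, Per2, Dbp and Nr1d1 had overlapping groups, and the hour of collection is not known here. In the glucocorticoid list, 0 of 20 genes passed by edgeR (6 higher and 2 lower at an unadjusted p under 0.05, and 2 higher by DESeq2) and the median was 0.26, or 0.06 without the 2 livers. Fkbp5, a common readout of glucocorticoid action, was at 31.1, 71.8 and 120 CPM in control and 89.6, 78.6, 192 and 157 CPM in soy livers. A further 2 genes fell in both fits. Wfdc2, a whey acidic protein family member, went from 13.1, 8.07 and 11.5 CPM to 2.08, 5.57, 2.24 and 3.21 CPM, a change of -1.73 ± 0.35, or -2.34 ± 0.38 without the 2 livers. Ermp1, an endoplasmic reticulum peptidase, fell by 0.89 ± 0.13, and by 0.73 ± 0.13 without them. The call of Wfdc2 was lost without control liver 1095 (adjusted p = 0.0818), 1120 (0.0570) or 1121 (0.107) or soy liver 1159 (0.0711). Atp9a, a P4-type ATPase, also passed in both fits, at -0.64 ± 0.15 and -0.83 ± 0.15 without the 2 livers, and its call was lost in 11 of 15 removals (up to 0.179, without control liver 1121).

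The restricted fish and lard livers were measured in the same fit, so that soy could be set against them without the control livers. Soy against the mean of fish and lard gave 0 genes past the edgeR threshold, with 3007 at an unadjusted p under 0.05, a smallest adjusted p of 0.0987, and 928 calls by DESeq2. The edgeR count of 0 became 2374 without soy liver 1065 and 1886 without soy liver 1141. Lepr was at 64.3 ± 21.6 CPM (SD, n = 4) in fish and 94.6 ± 32.9 CPM in lard livers, and at 76.4 ± 31.2 CPM in soy livers. Cyp46a1 was at 8.86 ± 1.63 CPM in fish and 7.90 ± 0.861 CPM in lard livers. Mup15 was at 1.21 ± 1.48 CPM in fish and 1.73 ± 1.51 CPM in lard. Cyp2b13 was at 167 ± 142 CPM in fish, 215 ± 164 CPM in soy and 132 ± 73.5 CPM in lard livers, and soy minus the mean of both others was 0.54 ± 0.61 (adjusted p = 0.589). The differences with the smallest adjusted p, 0.0987, included Cyp2c68 at 0.57 ± 0.12, with 279 ± 38.5 CPM in fish and 340 ± 28.1 CPM in lard, and Ermp1 at -0.56 ± 0.11. Apom was at 0.80 ± 0.17 in that comparison, where its high levels in mice 1073 and 1159 enter.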

How the data were processed

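RNA was extracted with Trizol and sequenced from TruSeq libraries, per the labels' protocols. GRCm38 and FastQC stand in the submitters' processing notes; which program aligned or counted the reads, and whether by strand, is not known here. The tested values are the authors' deposited counts of all exon reads per gene (38124 Ensembl genes, 36345 matched to a symbol). The authors' deposited RPKM values, also in those tables, were not tested.

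The 15 livers were fitted together with edgeR 4.0.16 in R 4.3.3 (TMM, filterByExpr with a minimum count of 10, quasi-likelihood F test, Benjamini-Hochberg adjustment, threshold 0.05). Each SE is the size of the fold change divided by the square root of F. The same fit was repeated without soy livers 1073 and 1159. Alternatives used DESeq2 1.42.0, limma 3.58.1 (voom), other filters, unique exon reads, a length offset and removal of each library. The scripts were tested on simulated data.

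Named genes were the 10 largest rises and falls among called genes that averaged 5 CPM or more over the 7 livers and whose groups did not overlap, every gene called with and without both livers, up to 3 called genes per list (or the 2 with the smallest p) and a set of key genes; the text names a part of them. The comparison, the lists and the key genes were chosen with earlier results of these data known. Each library is 1 mouse. Some genes are not reported here.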

Additional observations from a re-analysis of the deposited data

Results flagged for a closer look

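In 9 of the 159 named genes examined, 1 of the 4 soy livers lay far from the other 3 by Dixon's gap test at the 95% level, which chance gives in about 1 of 20 groups. The share seen here is close to that rate. Alb was at 136600 CPM in mouse 1159, the highest soy value. Marco, a scavenger receptor of macrophages, was at 109 CPM in mouse 1159 against 7.38 to 16.9 CPM in the other soy livers. Steap3, a metalloreductase, was at 7.99 CPM in mouse 1159, its lowest soy value. Mouse 1073 was high for the clock output gene Dbp (204 CPM), the bile duct keratin gene Krt7 (2.36 CPM) and the neutrophil gene S100a9 (1.57 CPM). Mouse 1065 was high for Onecut1, which encodes HNF6, at 134 CPM against 2.90 to 18.3 CPM, with few unique reads, and for Ugt2b38 (0.581 CPM). Mouse 1141 was high for the clock repressor gene Nr1d1 (111 CPM).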

How the results depend on the processing

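The count of 149 genes became 865 with DESeq2, 0 with limma-voom, 31 with only control and soy livers, 251 with a length offset, 97 with the library number as a replicate block and 26 without mice 1073 and 1159. Leaving out 1 library gave 34 (without control liver 1120) to 1625 (without soy liver 1065), and 43, 64 and 1330 when control liver 1121, soy liver 1159 or soy liver 1141 was left out. The count of 26 became 280 with DESeq2, 58 with voom, 80 with no filter, 51 with unique reads, 49 with a length offset and 3 with the replicate block, and ranged from 4 (without control liver 1121 or soy liver 1141) to 111 (without control liver 1095). Removing soy liver 1065 or 1141 there leaves 1 soy mouse, assumed to vary like the other groups. The count of 0 for soy against fish and lard became 928 with DESeq2 and ranged from 0 to 2374 (soy liver 1065 left out; 1886 with soy liver 1141 left out). The causes were not tested. Of 54 named genes past the threshold 21 held in every removal and 0 changed sign under any alternative run. Of 47 list medians 22 changed sign under at least 1 alternative. Deviations from the group means in same-numbered control and soy livers correlated at -0.0899, -0.158 and 0.0717, and in differently numbered ones at -0.151 to 0.18. So few pairs, with soy livers 1073 and 1159 among them, cannot show whether livers of the same library number share an effect.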

Other observations

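The following genes lie outside the rule for named genes and were chosen after their values were seen. Enho, which encodes the secreted peptide adropin, was at 1.79, 0.556 and 0.752 CPM in control and 3.68, 14.0, 6.71 and 5.78 CPM in soy livers. It rose by 2.85 (edgeR adjusted p = 0.0152), and did not pass without mice 1073 and 1159 (2.29, adjusted p = 0.0704). Rnase4, a secreted ribonuclease, was at 673, 699 and 773 CPM in control and 1154, 1399, 1487 and 1296 CPM in soy livers, and rose by 0.90 (adjusted p = 0.00877). Slc10a2, the apical bile acid transporter of bile duct cells, was at 7.69, 11.5 and 10.6 CPM in control and 3.58, 1.81, 1.64 and 2.14 CPM in soy livers, and changed by -2.09 (adjusted p = 0.0036). The carboxylesterase genes Ces1b and Ces1c rose by 1.30 and 0.76 (adjusted p = 0.0103 and 0.0101). Inhbe, which encodes an activin subunit of hepatocytes, changed by -1.09 (adjusted p = 0.0386). Without mice 1073 and 1159 all 6 genes kept their direction and 0 passed, with adjusted p = 0.0510 for Rnase4, 0.0521 for Slc10a2, 0.0533 for Ces1b and Ces1c and 0.147 for Inhbe.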
